A study of Mus musculus with 24 samples.

Results

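The ATP-binding cassette (ABC) transporter genes were taken as the symbols made of Abc, a subfamily letter from a to g, a number and at most 1 further letter. They numbered 50 of the 43280 symbols in the count files: 16 in subfamily A, 10 in B, 10 in C, 4 in D, 1 in E, 3 in F and 6 in G. RNA from the distal colon was sequenced in 24 libraries, 4 in each of 6 groups, and 36 members held enough counts to be tested in the fit over all genes. All groups were female C.B-17/Icr-scid/scid (SCID) mice, bought at 7 weeks of age, which lack mature T and B cells. The Normal group received no cells and no treatment.

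The other groups were injected with 200000 CD4+ T cells from BALB/c mice, taken from splenocytes activated for 3 days with 4 µg/mL concanavalin A and 10 ng/mL interleukin 2, a transfer that gives a T cell colitis. Treatment ran from day 17. Vehicle mice took 0.5% methylcellulose. An oral inhibitor of the kinase MEK, carried in enteric microparticles, was dosed daily up to day 27 at 0.3 mg/kg (MEKi 0.3) or 1 mg/kg (MEKi 1). The Isotype group was injected with a control antibody and the anti-TNF group with an antibody to tumour necrosis factor, each at 0.1 mg per mouse every 4 days. Tissue was taken at day 28. Microparticles without inhibitor are not among the groups, so the inhibitor and its carrier cannot be told apart. Nothing in the labels ties each replicate to its own animal, and the p-values cover the spread among the samples as labelled, which may be partly technical.

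ABC proteins bind and hydrolyse ATP, and most use it to move lipids, bile salts, drugs, peptides or metabolites across a membrane. In the gut the best known are P-glycoprotein (Abcb1a and Abcb1b in mice) and breast cancer resistance protein (Abcg2), which sit in the apical membrane of epithelial cells and pump drugs and plant compounds back to the lumen. Other members load cholesterol onto lipoproteins, form the regulatory part of potassium channels, feed fatty acids to peroxisomes, or, in subfamilies E and F, act on ribosomes without crossing a membrane.

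Some members are near copies, and the sequences show how far short reads can separate them. Abcb1a (chromosome 5, 8660077 to 8748575) and Abcb1b (chromosome 5, 8798147 to 8866315) lie side by side on the plus strand and correspond to the single human gene ABCB1. Their coding sequences in GENCODE M21 were 3828 bases each and 87.9% identical, with a longest identical run of 338 bases, and 16.3% of the 50-base stretches of Abcb1a transcripts also occur in Abcb1b. The lines below give the 60 coding bases in which the pair differs most without a gap, 25 mismatches in capitals, at chr5:8714924-8714983 and chr5:8827363-8827422 of mm10, plus strand.
Abcb1a: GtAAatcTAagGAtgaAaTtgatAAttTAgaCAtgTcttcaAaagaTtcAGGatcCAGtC
Abcb1b: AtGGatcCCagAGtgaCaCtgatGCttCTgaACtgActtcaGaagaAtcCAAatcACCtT

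Abca8a (chromosome 11, 110025634 to 110095978) and Abca8b (chromosome 11, 109932190 to 109995845), lipid transporters of subfamily A, are also neighbours, but share only 1.64% of the 50-base stretches of Abca8a. The bases just upstream of their RefSeq starts (GRCm38.p6, minus strand, chr11:110095979-110096187 and chr11:109995846-109996095) are shown because both genes turn out to be among the lowest in colitis. They were 47% identical when aligned. Capitals mark CCGCCC, the reverse complement of the GC box GGGCGG. In the 250 bases before the start, 32.7% of all 32851 RefSeq promoter windows hold that motif on either strand. Abca8a has none of the searched motifs in this stretch.
Abca8a: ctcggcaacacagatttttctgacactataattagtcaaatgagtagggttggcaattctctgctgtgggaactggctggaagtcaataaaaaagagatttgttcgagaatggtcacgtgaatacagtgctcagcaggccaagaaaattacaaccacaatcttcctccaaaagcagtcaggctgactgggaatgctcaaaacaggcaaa
Abca8b: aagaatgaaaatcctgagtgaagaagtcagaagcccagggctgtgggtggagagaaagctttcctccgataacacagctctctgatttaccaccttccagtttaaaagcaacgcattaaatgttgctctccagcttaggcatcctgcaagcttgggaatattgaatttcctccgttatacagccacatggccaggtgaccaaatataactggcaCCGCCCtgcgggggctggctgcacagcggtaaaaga

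Abcg5 and Abcg8, whose products pair into 1 sterol exporter, are transcribed away from each other on chromosome 17, and their RefSeq starts lie 109 bases apart. In GENCODE M21 the gene model of Abcg8 begins earlier, at 84676302 inside that of Abcg5 (84658234 to 84683011), and 82 exon bases are shared on opposite strands. The interval between the RefSeq starts (GRCm38.p6, chr17:84683012-84683120, plus strand) is printed because it lies upstream of both of those starts. Capitals mark TTTATA, the reverse complement of the TATA motif TATAAA, which 12.4% of all promoter windows hold in the 250 bases before the start. A match to a motif is a description and not a binding site.
Abcg5 and Abcg8: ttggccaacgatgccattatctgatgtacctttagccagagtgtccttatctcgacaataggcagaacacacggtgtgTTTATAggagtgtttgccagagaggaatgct

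Library totals ranged from 3052940 to 10587555 counts. Every Isotype and anti-TNF library held at least 6139216 counts, and every other library at most 5840995. Depth and group therefore cannot be told apart where Isotype is set against Normal or Vehicle. Levels are given as CPM, the count scaled to the library total. The 9 surface colonocyte markers, among them Car1 and Slc26a3, summed to between 10667 and 12047 CPM in Normal, none at 0, and 2 of 7 T cell markers, Cd3d and Cd3e, had no count in any Normal library. A table of the whole series gives another sample's name to 16 of the 24 columns. The samples' own files were used, and under the table's names no member passed in any comparison. Transcripts of the exocrine pancreas reached 5003 CPM in Vehicle 4 and 4105 CPM in Isotype 1, against at most 104 CPM in the other libraries.

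In normal colon Abcb1a was the most abundant member per length. Its mean was 75.9 ± 12.7 CPM per kb of exon (SD, n = 4), followed by Abcc3 at 40.4 ± 4.92, Abcf1 at 25.4 ± 1.90, Abcf2 at 24.4 ± 2.89 and Abca3 at 20.8 ± 0.933. The ranges of Abcf1 and Abcf2 overlap, so that their order is not settled. In all, 24 members had a Normal mean above 10 CPM and 5 above 100 CPM. Of the 14 untested members, Abca16 had no count in any library, and none exceeded 4.63 CPM anywhere.

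**Figure D1:**
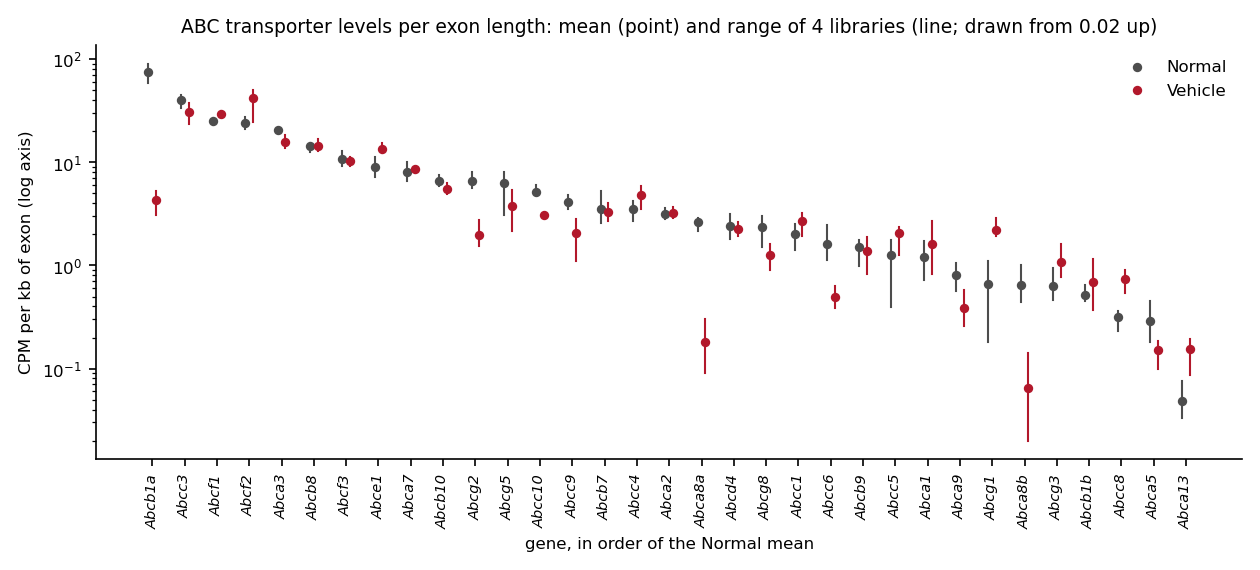
Level of the tested ABC genes, peroxisomal members left out, in CPM per kb of exon (log axis) in Normal (grey) and Vehicle (red), as the mean (point) and the range of 4 libraries (line). Abcb1a leads in Normal and is 13th among all members in Vehicle, while Abcc3 is second in both groups.

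With colitis, Abcb1a fell to a small part of its normal level, and Abca8a and Abca8b fell with it, while Abcg1, a sterol exporter prominent in macrophages, and Abca13 rose. In Vehicle against Normal, 6 of the 36 tested members were higher and 10 were lower at an adjusted p under 0.05 (edgeR's quasi-likelihood test, Benjamini-Hochberg over 14773 genes). Over all tested genes 23.1% were higher and 23.3% lower (46.4% in either direction), so the number of members called is close to the background and is no property of the family. The members' median log2 fold change was -0.12 and that of all genes 0.00. What follows is therefore about which members moved and how far.

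The drug and organic anion pumps held 8 tested members, of which 3 fell (Abcb1a, Abcg2 and Abcc10) and 1 rose (Abcc4). Abcb1a was at 439, 325, 407 and 492 CPM in Normal and at 16.9, 27.7, 21.4 and 28.9 CPM in Vehicle. The highest Vehicle library was more than 10 times below the lowest Normal library, and the fit gave a log2 fold change of -4.17 ± 0.77 (SE), which is 18.1-fold lower (adjusted p = 0.000313). This gene alone made up 23.1 ± 2.65% of the summed CPM of all members in Normal and 1.78 ± 0.371% in Vehicle (SD, n = 4). Abcb1b, its near copy, was at 3.9, 3.6, 3.73 and 5.14 CPM in Normal and at 5.55, 4.55, 2.92 and 9.27 CPM in Vehicle. Those groups overlap, and its log2 fold change of 0.39 ± 0.41 did not pass (adjusted p = 0.454). The ratio of Abcb1a to Abcb1b therefore went from between 90.2 and 113 in Normal to between 3.04 and 7.33 in Vehicle. Reads from the shared stretches may be counted for either gene.

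Abcg2 was at 49.6, 53.1, 45.9 and 65.6 CPM in Normal and 12.6, 22.4, 17.1 and 12.6 CPM in Vehicle, without overlap, which is -1.77 ± 0.51 on the log2 scale (adjusted p = 0.00837). Abcc10, a broad drug resistance pump, was at 33.6, 33.7, 41.4 and 32.9 CPM in Normal and at 22, 22, 21 and 20.2 CPM in Vehicle, again without overlap and with little spread within Vehicle. Its fall of 0.78 ± 0.17 on the log2 scale was small but precise (adjusted p = 0.00093). Abcc4, an exporter of cyclic nucleotides and prostaglandins, was at 20.1, 27.2, 25.2 and 17.3 CPM in Normal and 32, 31.1, 22.4 and 37.7 CPM in Vehicle, groups that overlap through Vehicle 3. Its rise of 0.42 ± 0.17 (adjusted p = 0.0419) was lost without Normal 1, Normal 4, Vehicle 1, Vehicle 2 or Vehicle 4, with an adjusted p of up to 0.147, and with the replicate number as a block (adjusted p = 0.0529). Nor was Abcc4 among the members called in a fit of only Normal and Vehicle, or without the libraries with pancreas transcripts. Abcc3, which moves bile salts and glucuronides out of the basolateral side, showed a log2 change of -0.41 ± 0.19 (adjusted p = 0.0774), and Abcc1, an exporter of glutathione conjugates and leukotriene C4, one of 0.37 ± 0.19 (adjusted p = 0.118). Both passed when Vehicle 3 was left out, at an adjusted p of 0.0374 for Abcc3 and 0.0499 for Abcc1. With libraries scaled for gene length Abcc1 rose by 0.74 (adjusted p = 0.00842), and in a fit of only Normal and Vehicle Abcc3 passed (adjusted p = 0.0312). Abcc2, the apical conjugate pump, was too low to test, at no more than 1.30 CPM.

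Most markers of the surface epithelium fell, as did Abcb1a, Abcg2 and Abcc10, while Abcc4 rose and the other tested pumps gave no call. Of 9 surface colonocyte genes, 7 were lower and 1 higher in Vehicle than in Normal, and their summed level was 2581 to 3097 CPM in Vehicle, with none at 0. In bulk tissue, fewer cells of a type and less RNA per cell cannot be told apart. The part of this change in the result for each pump was not tested.

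**Figure D2:**
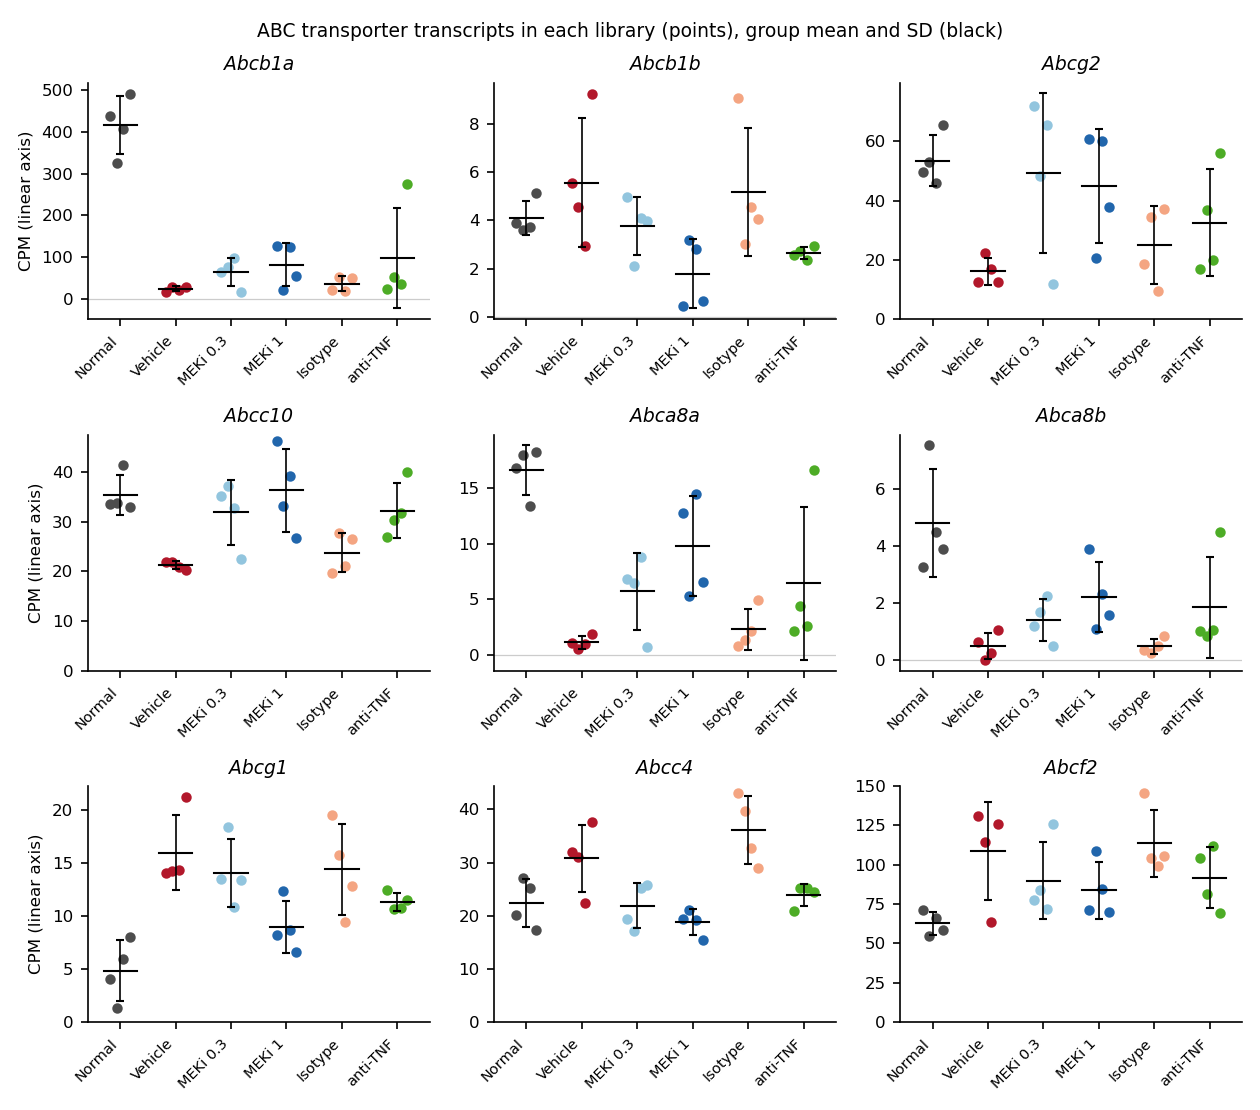
CPM (linear axis) of 9 ABC genes in each of the 24 libraries, with the group mean (bar) and SD (whisker, n = 4). The group means of Abcb1a, Abca8a and Abca8b are highest in Normal. For Abcb1a, MEKi 1 replicate 2 and MEKi 0.3 replicate 4 are the lowest of their groups, and anti-TNF replicate 4 is the highest of its group.

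Of the cholesterol and phospholipid exporters, 1 of 5 tested members changed. Abcg1, which passes sterols to lipoproteins, was at 4.11, 1.31, 5.97 and 8.02 CPM in Normal and 14.1, 14.2, 14.4 and 21.3 CPM in Vehicle. Every Vehicle library was above every Normal one, and the log2 fold change was 1.61 ± 0.30, or 3.06-fold (adjusted p = 0.000179). Abca1, which loads cholesterol onto apolipoprotein A-I, was at 10.4, 7.53, 13.8 and 18.1 CPM in Normal and 19.2, 12.1, 8.53 and 27.8 CPM in Vehicle, with overlap and a log2 fold change of 0.37 ± 0.31 (adjusted p = 0.343). Abcg5 was at 8.44, 21.9, 21.3 and 16.9 CPM in Normal and 9.38, 14.8, 10.5 and 5.9 CPM in Vehicle. Abcg8, its partner on the opposite strand, was at 5.63, 8.84, 9.7 and 11.3 CPM in Normal and 5.55, 6.07, 4.14 and 3.37 CPM in Vehicle. Both were lower on average, with log2 fold changes of -0.78 ± 0.48 for Abcg5 (adjusted p = 0.192) and -0.93 ± 0.45 for Abcg8 (adjusted p = 0.0928), and neither passed. In a fit of only Normal and Vehicle both did (adjusted p = 0.0473 for Abcg5 and 0.0135 for Abcg8). Beside Abcg1, 7 macrophage genes found in the files summed to 555 to 636 CPM in Normal and 2479 to 4184 CPM in Vehicle. Their part in the rise of Abcg1 was not tested.

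The lipid transporters of subfamily A outside that set had 7 tested members, of which 5 fell and 1 rose. Abca8a was at 16.9, 18, 13.4 and 18.3 CPM in Normal and 1.07, 0.569, 0.975 and 1.9 CPM in Vehicle, without overlap, a log2 fold change of -3.92 ± 0.73 or 15.1-fold (adjusted p = 0.00026). Abca8b was at 3.25, 7.53, 4.48 and 3.91 CPM in Normal and 0.64, 0, 0.244 and 1.05 CPM in Vehicle, a log2 fold change of -3.28 ± 0.68 (adjusted p = 0.000478). Both neighbours fell, from different starting levels. Abca3, which carries phospholipids into the lamellar bodies of the lung, was abundant here, at 184, 199, 194 and 205 CPM in Normal and 129, 145, 172 and 151 CPM in Vehicle. The groups do not overlap, and its fall was 0.43 ± 0.13 on the log2 scale (adjusted p = 0.0104). With libraries scaled for gene length that call was lost, at -0.20 (adjusted p = 0.196). Abca9 showed a log2 change of -1.12 ± 0.40 (adjusted p = 0.0257) and Abca5, a lysosomal lipid transporter, one of -1.001 ± 0.405 (adjusted p = 0.0459).

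The last 2 calls rest on single libraries, and neither held without the libraries with pancreas transcripts (adjusted p = 0.0648 for Abca9 and 0.0722 for Abca5). That of Abca9 was lost without Normal 3, Vehicle 2, Vehicle 3 or Vehicle 4, with an adjusted p of up to 0.0854. That of Abca5 was lost without any of Normal 1, Normal 3 or the 4 Vehicle libraries, with an adjusted p of up to 0.191, and with the replicate block (adjusted p = 0.0534). Abca5 was also absent from the calls with libraries scaled for gene length. Abca13, a very large and poorly understood member, was at 0.649, 0.655, 1.49 and 1.03 CPM in Normal and 1.71, 3.79, 3.66 and 3.16 CPM in Vehicle, without overlap. Its level was low, with 2 to 8 counts in each Normal library, but its log2 fold change was 1.58 ± 0.43 (adjusted p = 0.00439). Abca13 was not among the members called in a fit of only Normal and Vehicle. Adipocyte and smooth muscle genes also differed: the 5 adipocyte genes summed to 102 to 112 CPM in Normal and 17.1 to 27.8 CPM in Vehicle, with Lep at 0 in Vehicle, and the 8 smooth muscle genes to 6863 to 8630 CPM and 1567 to 3500 CPM. The 6 fibroblast genes had overlapping summed ranges, 1083 to 1588 CPM and 1117 to 2170 CPM, but went different ways. Among them Col1a1 was called higher, and Dpt and Lum were called lower. The 6 enteric neuron and glia genes summed to 37.2 to 54.7 CPM in Normal and 5.88 to 14.3 CPM in Vehicle, and all 5 tested were lower. How much of the fall of Abca8a and Abca8b goes with these cells was not tested.

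The sulfonylurea receptors, the regulatory subunits of ATP-sensitive potassium channels, moved in opposite directions. Abcc8 (SUR1) was at 2.6, 2.95, 2.8 and 1.85 CPM in Normal and 5.97, 6.26, 4.39 and 7.37 CPM in Vehicle, a log2 fold change of 1.20 ± 0.33 (adjusted p = 0.00476). Abcc9 (SUR2), found in smooth muscle and pericytes, was at 40.7, 29.5, 34.2 and 33.7 CPM in Normal and 22, 13.7, 9.26 and 23.6 CPM in Vehicle, a log2 fold change of -1.06 ± 0.30 (adjusted p = 0.00623). Neither pair of groups overlaps. Beside Abcc9, all 8 smooth muscle genes and 2 of 4 pericyte genes were lower in Vehicle, the latter summing to 162 to 212 CPM in Normal and 63.9 to 123 CPM in Vehicle, and their part was not tested. Abcc6, which supports ATP release and so limits calcification, was at 6.49, 7.86, 14 and 9.05 CPM in Normal and 2.99, 2.47, 2.19 and 3.58 CPM in Vehicle, a log2 fold change of -1.78 ± 0.54 without overlap (adjusted p = 0.0106).

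Among members inside the cell, the mitochondrial and lysosomal ones gave no call and the ribosome-associated ones did. None of 3 mitochondrial and 2 lysosomal members tested passed, with median log2 fold changes of -0.12 and -0.16. Of 4 ATPases that act on ribosomes, 2 rose. Abce1, which splits ribosomes after termination, was at 55.2, 67.8, 49.3 and 43 CPM in Normal and 83, 73.8, 74.8 and 93.7 CPM in Vehicle, a log2 fold change of 0.56 ± 0.19 without overlap (adjusted p = 0.0204). Leaving out Normal 3, Normal 4 or Vehicle 4 ended that call for Abce1, at an adjusted p of up to 0.0666. Without the libraries with pancreas transcripts Abce1 was not called either. Abcf2 was at 71.4, 54.7, 65.9 and 58.8 CPM in Normal and 131, 114, 63.4 and 126 CPM in Vehicle, where Vehicle 3 lies within the Normal range, and its log2 fold change was 0.74 ± 0.20 (adjusted p = 0.00397). When libraries were scaled for gene length, 8 members were higher and 8 lower, and 44.6% of all genes passed.

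**Figure D3:**
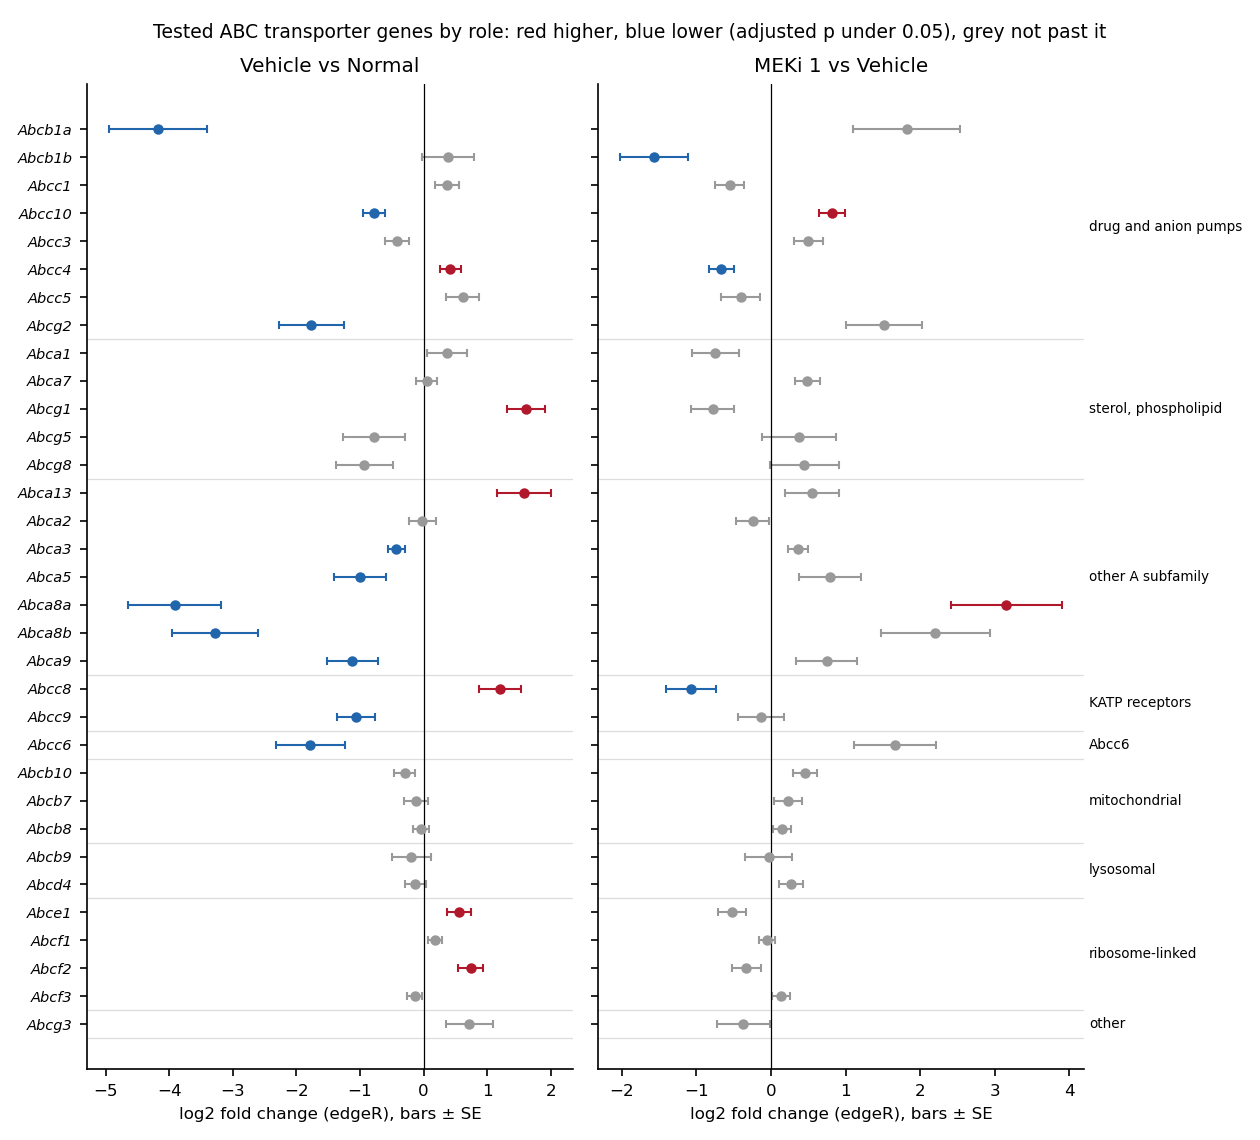
Log2 fold change with SE (bar) of the tested ABC genes, peroxisomal members left out, grouped by role, in Vehicle against Normal (left) and MEKi 1 against Vehicle (right). Red marks genes higher and blue genes lower at an adjusted p under 0.05; 16 pass on the left and 5 on the right.

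The Isotype group gave a second look at colitis, although it was set against the same 4 Normal libraries and so is not independent of the comparison above. Here 7 members were higher and 6 lower, against 20.9% and 20.3% (together 41.2%) of all tested genes. Abcb1a was at 21.3, 53.2, 18.6 and 49.5 CPM in Isotype, all below every Normal library, and its log2 fold change was -3.59 ± 0.73 (adjusted p = 0.000938). Abca8a was at 0.825, 1.33, 2.12 and 4.91 CPM, with a log2 fold change of -2.86 ± 0.63, and Abca8b at 0.354, 0.241, 0.489 and 0.85 CPM, with -3.24 ± 0.61. Abca13 was at 3.06, 9.28, 4.24 and 8.5 CPM, above every Normal library, with a log2 fold change of 2.60 ± 0.40 (adjusted p = 2.64e-05). Abcg1 was at 19.6, 15.8, 9.45 and 12.8 CPM, with a log2 fold change of 1.45 ± 0.29 (adjusted p = 0.000496).

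Further members that rose in Isotype were Abcf2 at 0.81 ± 0.20, Abcc4 at 0.64 ± 0.16, Abce1 at 0.59 ± 0.19 and Abcf1 at 0.41 ± 0.11 on the log2 scale, and Abcg3, a rodent relative of Abcg2, at 0.96 ± 0.35. Those that fell were Abcc6 at -1.51 ± 0.51, Abcc9 at -0.81 ± 0.29 and Abcc10 at -0.62 ± 0.17. Abcg2 did not pass, at -1.15 ± 0.49 (adjusted p = 0.0641), although its 4 Isotype libraries, 18.5, 34.4, 9.61 and 37.3 CPM, lay below all Normal ones. Abca1 did not pass either, at 0.64 ± 0.30 (adjusted p = 0.0937). Leaving out Isotype 4 brought Abcg2 (adjusted p = 0.0454) and Abca1 past the threshold, and leaving out Normal 4 brought Abca1 past it, at an adjusted p down to 0.0382. Abcg2 also passed with DESeq2 (adjusted p = 0.0444) and in a fit of only Normal and Isotype (0.0182). Single libraries ended 4 of these calls. Abce1 was lost without Normal 4 (adjusted p = 0.0561). Abcg3 was lost without Normal 1, Normal 2, Normal 4, Isotype 2 or Isotype 4 (up to 0.094). Abcc6 was lost without Normal 3, Isotype 1 or Isotype 3 (up to 0.0806), and Abcc9 without Normal 1, Normal 3, Normal 4, Isotype 2, Isotype 3 or Isotype 4 (up to 0.0885).

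For Isotype 3, Isotype 4, anti-TNF 1 and anti-TNF 2 the files and the series-wide table disagree on the antibody. They also disagree on all Vehicle and MEKi 0.3 libraries, on MEKi 1 replicates 1 and 2, and on Normal 3 and Normal 4. No Vehicle library has the same name in both sources, so no comparison with Vehicle could be repeated over such libraries. Over the libraries that both name alike, Normal 1 and 2 and Isotype 1 and 2, the calls were 2 higher (Abcg1 and Abca13) and 2 lower (Abca8a and Abca8b), and 6.86% of all genes passed. Abcb1a then showed a log2 change of -3.45 with an adjusted p of 0.139.

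Set directly against each other, Isotype and Vehicle showed no member past the threshold, against 1.32% higher and 1.67% lower of all genes. At an unadjusted p under 0.05 there were 5 members, against 17.4% of all genes, and DESeq2 called 0 members and 5.31% of all genes. The smallest p-values belonged to Abca13 at 1.02 ± 0.34 (adjusted p = 0.0992), Abcb10, a mitochondrial member needed for heme synthesis, at 0.48 ± 0.16 (adjusted p = 0.104), and Abcf3 at 0.32 ± 0.12 (adjusted p = 0.145). Abca13 passed without Isotype 1 (adjusted p = 0.0255) and Abcb10 without Isotype 3 (adjusted p = 0.0269). For Abcb1a the log2 fold change was 0.58 ± 0.70 (adjusted p = 0.727), and Abcb1b, Abcg2, Abcc1, Abcc3, Abca1, Abcg1, Abcg5 and Abcg8 lay with it between -0.16 and 0.90.

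With the MEK inhibitor at 1 mg/kg, Abcc10 and Abca8a rose, and Abcc4, Abcb1b and Abcc8 fell, relative to Vehicle. These 2 higher and 3 lower members compare with 6.08% higher and 4.51% lower of all tested genes, so the counts are again near the background. Since both comparisons use the same Vehicle libraries, a low Vehicle value enters the fall in colitis and the rise under treatment alike. The members' median log2 fold change was 0.19.

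Among the pumps, Abcc10 was at 46.3, 33.1, 39.3 and 26.8 CPM in MEKi 1, all 4 libraries above the 20.2 to 22.0 CPM of Vehicle. Its log2 fold change was 0.81 ± 0.17 (adjusted p = 0.0114), and it passed in all fits without 1 library except that without MEKi 1 replicate 1 (adjusted p = 0.0634). Abcc4 was at 19.4, 21.2, 19.1 and 15.4 CPM, below every Vehicle library, a log2 fold change of -0.67 ± 0.17 (adjusted p = 0.0206). Abcb1b was at 0.456, 3.21, 2.81 and 0.63 CPM, with 1 library inside the Vehicle range, a log2 fold change of -1.57 ± 0.45 (adjusted p = 0.0321).

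Abcb1a, the pump with the largest fall in colitis, was at 125, 21.6, 124 and 54.2 CPM in MEKi 1. In this group 3 libraries lay above every Vehicle library and replicate 2 lay among them, while all 4 stayed below every Normal library. Its log2 fold change of 1.82 ± 0.72 did not pass (adjusted p = 0.099), and passed without MEKi 1 replicate 2 (adjusted p = 0.0469). Abcg2 was at 60.9, 20.7, 60.2 and 37.8 CPM, with replicate 2 again inside the Vehicle range, a log2 fold change of 1.51 ± 0.51 (adjusted p = 0.0601, and 0.0278 without that replicate). The same library had the lowest sum of surface colonocyte genes in its group, 2637 CPM against 5613 to 6574 CPM in the other 3, and the highest sum of neutrophil genes, 150.3 CPM against 18.0 to 88.2 CPM. Their part in the values of Abcb1a and Abcg2 was not tested. Neither Abcc3, at 0.50 ± 0.19 (adjusted p = 0.0806), nor Abcc1, at -0.55 ± 0.19 (adjusted p = 0.064), passed, and Abcc1 did so without Vehicle 3 (adjusted p = 0.0407).

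No sterol exporter passed under the inhibitor. Abcg1 was at 8.21, 12.4, 8.67 and 6.61 CPM, below every Vehicle library, with 3 of 4 above every Normal one, with a log2 fold change of -0.78 ± 0.29 (adjusted p = 0.0729, and 0.0396 without MEKi 1 replicate 2). Abca1 was at 10.7, 11.3, 10.7 and 5.98 CPM, that is a log2 fold change of -0.75 ± 0.32 (adjusted p = 0.117). Abcg5 and Abcg8 had log2 fold changes of 0.37 ± 0.49 and 0.45 ± 0.46. In subfamily A, Abca8a was at 12.8, 5.34, 14.5 and 6.61 CPM, clear of the Vehicle range and overlapping the Normal range. Its log2 fold change was 3.15 ± 0.75, or 8.90-fold (adjusted p = 0.0173). Abca8b, at 3.88, 1.07, 2.3 and 1.57 CPM, was only just above every Vehicle library and was not among the calls. Its lowest count in MEKi 1 and its highest in Vehicle were both 5. Abcc8 was at 2.51, 1.5, 2.81 and 4.41 CPM, with 1 library just inside the Vehicle range, a log2 fold change of -1.07 ± 0.33 (adjusted p = 0.0401).

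These 5 calls depended on single libraries. Without MEKi 1 replicate 1 no member passed, nor did more than 0.286% of all genes, and without MEKi 1 replicate 3, Vehicle 1 or Vehicle 4 only Abcc10 did. Without MEKi 1 replicate 2, 7 members were higher and 3 lower, Abcb1a, Abcg2 and Abcg1 among them, and 15.8% of all genes passed against 10.6% with all libraries. The highest adjusted p over the fits without 1 library was 0.0658 for Abca8a, 0.0848 for Abcc4, 0.121 for Abcb1b and 0.121 for Abcc8. Abcb1b was also lost without MEKi 1 replicate 4, and Abcc8 without Vehicle 2 or MEKi 1 replicate 2. Vehicle 4 and Isotype 1 hold pancreas transcripts, and a fit without both called Abcc10 and Abca8a higher and none lower, with 2.62% of all genes past the threshold. DESeq2 called 7 higher and 5 lower and 15.6% of all genes, with Abcb1a (adjusted p = 0.0446), Abcg2 (0.0261), Abcc1 (0.0442) and Abcg1 (0.0294) among the members. A fit of only these groups called 6 higher and 4 lower and 15.2% of all genes. A fit with the replicate number as a block called 2 higher and 1 lower and 7.78% of all genes, without Abcb1b (adjusted p = 0.0551) and Abcc8 (0.0513). With libraries scaled for gene length Abcc1 passed as lower (adjusted p = 0.0371).

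**Figure D4:**
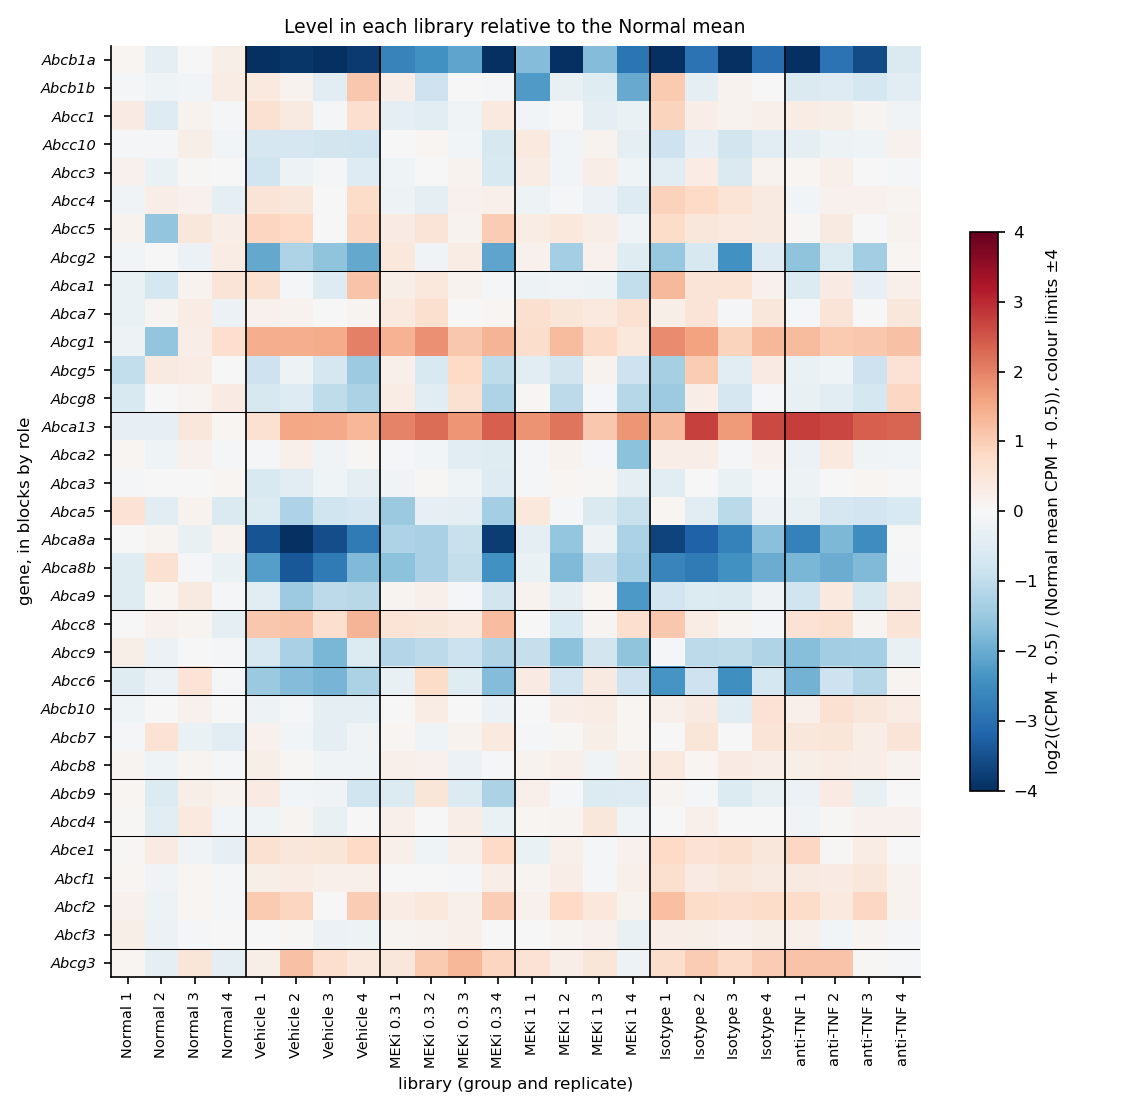
Level of the tested ABC genes, peroxisomal members left out, in each library relative to the Normal mean, as log2 of CPM + 0.5 over the Normal mean + 0.5, with colour limits at ±4. Rows are in blocks by role and columns by group. Abcb1a, Abca8a and Abca8b are blue in Vehicle and Isotype and nearest to Normal in anti-TNF replicate 4.

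At 0.3 mg/kg no member passed, and 1 gene did among all tested (0.00677%, higher; 0% were lower). At an unadjusted p under 0.05 there were 9 members, against 17.9% of all genes, and DESeq2 called 1, Abca8a, and 0.63% of all genes. The smallest p-values were those of Abcc10, at 35.3, 37.3, 32.8 and 22.6 CPM, with a log2 fold change of 0.61 ± 0.17, of Abcg2, at 72.1, 48.2, 65.5 and 11.9 CPM, with 1.64 ± 0.51, and of Abca8a, at 6.85, 6.5, 8.81 and 0.744 CPM, with 2.38 ± 0.76. Each had an adjusted p of 0.193. In each of these genes replicate 4 was the lowest library of its group. For Abca8a it lay inside the Vehicle range and for Abcg2 below it. Abcb1a was likewise lowest in replicate 4, at 64.4, 76.7, 96.9 and 16.9 CPM, with a log2 fold change of 1.45 ± 0.71 (adjusted p = 0.289).

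Without MEKi 0.3 replicate 4, 4 members were higher and 1 lower: Abcc10 at 0.75 ± 0.16 (adjusted p = 0.0261), Abcg2 at 1.96 ± 0.45 (adjusted p = 0.0277), Abca8a at 2.73 ± 0.70 (adjusted p = 0.0325), Abcc6 at 1.85 ± 0.52 (adjusted p = 0.0387) and Abcc1 at -0.71 ± 0.19 (adjusted p = 0.0367). In that fit 7.52% of all genes passed. Replicate 4 also had the lowest sum of surface colonocyte genes in its group, 2764 CPM against 4634 to 5551 CPM, and the highest sum of neutrophil genes, 629 CPM against 56.6 to 168 CPM. Their part was not tested. With all libraries, the 9 tested pumps and sterol exporters followed in every comparison (Abcb1a, Abcb1b, Abcg2, Abcc1, Abcc3, Abca1, Abcg1, Abcg5 and Abcg8) had log2 fold changes between -0.53 and 1.64, and none passed.

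With the antibody to TNF, no member passed against Isotype, where 0.00677% of all genes were higher and 0.0135% lower (together 0.0203%). At an unadjusted p under 0.05 there were 7 members, against 11.2% of all genes, and DESeq2 called 0 members and 0.575% of all genes. Abcc4 came closest, at 20.9, 25.1, 25.3 and 24.4 CPM in anti-TNF and 43, 39.7, 32.7 and 29 CPM in Isotype, groups that do not overlap, with a log2 fold change of -0.57 ± 0.16 (adjusted p = 0.213). Abca8b had 1.86 ± 0.62 (adjusted p = 0.282) and Abcc10 0.46 ± 0.17 (adjusted p = 0.304). Abcb1a was at 23.5, 53.1, 34.4 and 275 CPM in anti-TNF. Replicate 4 lay above all libraries of the other colitis groups, though below the lowest Normal one. The remaining anti-TNF libraries lay within the range of Isotype, their own control. The log2 fold change was 1.45 ± 0.68 (adjusted p = 0.438).

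Anti-TNF replicate 4 was also the highest of its group for Abcg2, Abcg5, Abcg8, Abca8a, Abca8b, Abcc6, Abcc9 and Abcc10. It had the highest sum of surface colonocyte genes, 7454 CPM against 3100 to 4350 CPM, and the lowest sum of neutrophil genes, 41.5 CPM against 111 to 450 CPM, and their part was not tested. Without it the log2 fold change of Abcb1a was 0.077. The same 9 pumps and sterol exporters had log2 fold changes between -0.93 and 1.45 over all libraries, and none passed.

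Whether the inhibitor at 1 mg/kg and the antibody differ in effect was tested as the difference of their log2 fold changes, each against its own control. No member passed, and 0.0135% of all genes did. An unadjusted p under 0.05 was found for 2 members and for 4.93% of all genes. DESeq2 called 0 members and 0.0542% of all genes. The smallest p-values were those of Abcc8, with a difference of -1.16 ± 0.45 (adjusted p = 0.872), Abca7 at 0.51 ± 0.23 and Abca5 at 1.04 ± 0.55 (adjusted p = 0.934 each). For Abcb1a the difference was 0.37 and for Abcg2 1.11, and neither passed. These values do not show that the treatments act alike.

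A further 3 ABC proteins carry other names. Tap1 and Tap2, which together move peptides into the endoplasmic reticulum for antigen presentation, rose in Vehicle by 3.35 ± 0.25 and 1.84 ± 0.19 on the log2 scale, and Cftr, the epithelial chloride channel, fell by 1.62 ± 0.26 (adjusted p = 1.33e-09, 1.28e-07 and 5.40e-05). Under the inhibitor at 1 mg/kg Cftr rose by 1.08 ± 0.26 (adjusted p = 0.0185), while Tap1 and Tap2 had log2 fold changes of -0.03 ± 0.23 and -0.06 ± 0.18. Against Isotype, the antibody gave 0.73 ± 0.25 for Cftr (adjusted p = 0.292).

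Genes around the transporters were read from 4 further lists. For all tested genes the shares called were 23.1% higher and 23.3% lower in Vehicle against Normal, together 46.4%. In MEKi 1 against Vehicle they were 6.08% higher and 4.51% lower, together 10.6%. Of 15 nuclear receptors and factors known to act on pump genes, 2 were higher and 8 lower in Vehicle than in Normal, and 4 were higher and none lower in MEKi 1 than in Vehicle. Of 14 tested genes of cholesterol handling, 4 were higher and 6 lower in Vehicle, and 1 was higher in MEKi 1. Of 10 genes of peroxisomal fatty acid oxidation, 5 were lower in Vehicle and 2 higher in MEKi 1. Of 11 genes of mitochondrial heme and iron-sulfur synthesis, 4 were higher and 1 lower in Vehicle, and 1 was higher in MEKi 1, where the 3 tested mitochondrial members gave no call. No gene of these 4 lists passed in MEKi 0.3 against Vehicle or in anti-TNF against Isotype. Only 0.00677% and 0.0203% of all tested genes passed there, so these lists could hardly have shown a call.

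RefSeq promoter windows, 250 bases before to 50 bases after each start, were found for 38 members. Only the 250 bases before the start were searched, on both strands. GGGCGG was present in 17 of the 38 and CCAAT in 13, against 32.7% and 33.8% of all windows. A member was counted if any of its windows held the motif, while the percentages are shares of single windows. The counts and the percentages are therefore not measured alike. AGGTCA, a nuclear receptor core motif that can lie inside longer sites, was present in Abcb11, Abcb6, Abcc10, Abcc2 and Abcg2, against 14% of all windows. TATAAA was present in Abca1, Abca4, Abcb6, Abcg5 and Abcg8, TGACGTCA in Abce1 and Abcg2 (1.55% of all windows) and TGACTCA in none (4.46%). The window of Abcb1a is counted among the 38 and held none of these motifs. Its sequence is not printed, because its RefSeq start lies 93 kb upstream of the GENCODE start.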

How the data were processed

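Poly(A) RNA of 24 mouse colon libraries was fragmented with RNase III and sequenced on an Ion Torrent instrument, per the labels' protocols. The authors deposited raw counts per gene symbol, and the submitters' processing notes name the build mm10. The aligner, counter, annotation and handling of strand and shared reads were not given in the sources used here. Exons of Abcb1a overlap an opposite-strand gene over 10.1% of their length and those of Abca3 over 9.75%, and such reads cannot be told apart.

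Counts were used as deposited. The samples' own files give the groups. A table of the whole series names 16 of 24 columns otherwise: summed counts of 7 T cell genes were 35 to 68 in Normal by the files and 35 to 521 by the table's names. By the files these sums were 467 to 746 in Vehicle, 454 to 544 in MEKi 0.3 and 142 to 486 in MEKi 1. Those ranges overlap with that of Vehicle, so the sums do not settle the names among these groups. No replicate pair was a duplicate (chi-square per gene 5.38 to 59.9). CPM was computed from these counts and the library total. Tests used edgeR 4.0.16 in R 4.3.3 (filterByExpr, TMM, robust quasi-likelihood fit of all 24 libraries, F tests, Benjamini-Hochberg adjustment over 14773 genes in each of 7 comparisons, threshold 0.05, prior count 0.125). The common dispersion was 0.0539. SE is the absolute log2 fold change over the square root of F. The script was tested on simulated data. Exon lengths and coding sequences came from GENCODE M21, promoters from RefSeq GRCm38.p6.

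Text names, per comparison, up to 10 passing members each way (where none passed, the 3 of smallest p), 10 members followed throughout, and the 5 of highest level per kb. The members and all gene lists were chosen with earlier results of these data known. Libraries of equal number deviated together in MEKi 0.3 and Vehicle, in all 4 pairs (correlations of 0.126, 0.125, 0.167 and 0.184, threshold 0.1), though the labels do not say what a number shares. No other comparison met that rule. A paired fit of those groups called 0 members of 405 genes. Alternatives were DESeq2 1.42.0, RLE factors, library size only, other filters, a length offset, a replicate block, only the groups compared, the table's names and each library left out. Chosen after seeing the data were the paired fit of 2 groups, a fit without the libraries in which pancreas genes exceed 1000 CPM, and the use of identically named libraries. Abca8b in MEKi 1, Abcc6 in MEKi 0.3, and Abca6, Abca12 and Abcg4 were named after their values were seen. Results for the peroxisomal members are not reported here.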

Additional observations from a re-analysis of the deposited data

Results flagged for a closer look

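For the 27 named members, each group's 4 CPM values were checked for 1 value set apart from the others (Dixon's ratio above its 95% critical value). This marked 12 of 162 groups, and chance marks about 1 group in 20.

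Of these, 4 fell on anti-TNF replicate 4: Abcb1a at 275 CPM against 23.5 to 53.1 in the others, Abca8a at 16.7 CPM against 2.15 to 4.39, Abca8b at 4.51 CPM against 0.830 to 1.05, and Abcc9 at 28.0 CPM against 10.3 to 13.1. Another 3 fell on Isotype replicate 1, which also holds pancreas transcripts: Abcc1 at 56.5 CPM against 33.4 to 36.8, Abcc9 at 33.7 CPM against 14.8 to 16.9, and Abcf2 at 145 CPM against 99.2 to 105. A further 2 fell on MEKi 0.3 replicate 4: Abcc8 at 6.69 CPM against 3.48 to 3.94, and Abcf1 at 135 CPM against 109 to 113. The remaining marks were Abca1 in MEKi 1 replicate 4 at 5.98 CPM against 10.7 to 11.3, Abcc10 in Normal replicate 3 at 41.4 CPM against 32.9 to 33.7, and Abcg1 in Vehicle replicate 4, the other library with pancreas transcripts, at 21.3 CPM against 14.1 to 14.4.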

How the results depend on the processing

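Counts of members were within 1.5 times the main count under RLE factors, library size only, no filter and a length offset. In Vehicle against Normal, 3 members were higher when genes needed a mean of 5 CPM, and leaving out each library gave 4 to 8 higher and 8 to 11 lower. In Isotype against Normal it gave 6 to 7 higher and 5 to 7 lower, and the identically named libraries gave 2 and 2. In Isotype against Vehicle it gave 0 to 1 higher. In MEKi 1 against Vehicle it gave 0 to 7 higher and 0 to 4 lower. There DESeq2 called 7 higher and 5 lower, the fit of only the groups compared called 6 higher, and the lower count was 1 with a mean of at least 5 CPM, 1 with the replicate block and 0 without the libraries holding pancreas transcripts. In MEKi 0.3 against Vehicle, DESeq2 called 1 higher, and leaving out each library gave 0 to 4 higher and 0 to 1 lower. The cause of these moves was not tested.

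The replicate block gave 5 higher and 9 lower in Vehicle against Normal, and beside these and the lower count in MEKi 1 against Vehicle it changed no count of members. Under the column names of the series-wide table, all counts were 0, and 24 log2 fold changes turned sign. In Vehicle against Normal they became -0.0092 for Abcg1, 0.19 for Abcb1a, 0.013 for Abcc9, 0.33 for Abcg5 and 0.28 for Abcg8. In MEKi 1 against Vehicle they became -0.26 for Abcc10, -0.80 for Abca8a, 0.032 for Abcc4, 0.40 for Abcc8, -2.15 for Abcb1a, -0.56 for Abcg2, -0.011 for Abcc3, 0.43 for Abcg1, -0.76 for Abcg5 and -0.96 for Abcg8. In MEKi 0.3 against Vehicle they became -0.10 for Abcc10, -0.74 for Abcg2, -1.13 for Abca8a and -2.45 for Abcb1a, in Isotype against Vehicle -2.80 for Abcb1a, and in the difference of effects 0.91 for Abcc8, -0.0078 for Abca5, -3.49 for Abcb1a and -0.79 for Abcg2. Depth limits the 14 untested members, and pairs such as Abcb1a and Abcb1b share reads.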

Other observations

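Some members too low for the main test still differed in counts between groups, and their counts are given here. Abca6, in the same chromosome 11 cluster as Abca8a and Abca8b, had 19 counts over the 4 Normal libraries and 0 over the 4 Vehicle libraries, with 5 to 9 counts in each other group. Abca12, known for carrying lipids in skin, had 1 count in Normal and 43 in Vehicle, nearly all from Vehicle 1 (3.63 CPM) and Vehicle 4 (4.63 CPM). Abcc2 had 18 counts in Normal and 2 in Vehicle, and Abcg4 had 47 in Normal and 20 in Vehicle. With no filter on low counts, 6 members were higher and 12 lower in Vehicle than in Normal, and 24.2% of all genes then tested passed. Abca6, Abca12, Abcc2 and Abcg4 were among those calls.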
